A study of Mus musculus with 36 samples.

Results

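The genes of the HIF alpha and beta subunits, Hif1a, Epas1, Hif3a, Arnt and Arnt2, were followed in total RNA of C57BL/6 mice treated with DMOG, roxadustat or PBS. They were chosen by name, with earlier results of these data known. All 5 were among the 22558 genes listed in each of the 2 tables. Each table holds 18 libraries, 6 per treatment: DMOG, roxadustat and PBS, the control. DMOG and roxadustat are small molecules that inhibit HIF prolyl hydroxylases. The labels give neither dose, time, route, age nor sex, so any difference between the compounds is between these treatments as given. They also do not say whether the replicates are separate animals, so each p-value here covers only the spread from library to library, which may be technical.

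The tissue labels went against the RNA. In the libraries labelled retina, Apoa1, the main HDL apolipoprotein gene, had a median of 9038 FPKM (fragments per length of transcript and per sequencing depth), and Sag, the gene of a photoreceptor arrestin, 0.163 FPKM. Alb, the albumin gene, was listed at 0 in all 18 of them. In the libraries labelled liver, Sag had a median of 2588 FPKM and Apoa1 0.278 FPKM. The first are therefore called liver RNA (labelled retina) and the second retina RNA (labelled liver). Library totals were 433021 to 540324 FPKM in liver RNA and 542785 to 617853 FPKM in retina RNA. Read counts are not used here, but steps among low values gave relative depths of 0.782 to 1.16 and of 0.849 to 1.21. In retina RNA these were 0.896 to 0.965 with PBS, 1.00 to 1.21 with DMOG and 0.849 to 1.13 with roxadustat. The PBS and DMOG ranges did not overlap there, and the part of depth in that comparison was not tested. In liver RNA the treatments overlapped in depth. In liver RNA, DMOG replicate 5 lay apart from the other 5 DMOG libraries: Egln3, a HIF target, was at 8.23 FPKM there, against 46.4 to 72.5 FPKM in the others and 5.19 to 8.29 FPKM with PBS. Several results that use that library are also given without it. The library was set apart by values of these same data, so a p-value without it is not an independent test.

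HIF is a transcription factor of 1 alpha and 1 beta subunit. The alpha subunits HIF-1 alpha (Hif1a), HIF-2 alpha (Epas1) and HIF-3 alpha (Hif3a) are hydroxylated by prolyl hydroxylases when oxygen is present, bound by the VHL ubiquitin ligase and degraded. Inhibitors of the hydroxylases stabilise the protein, a step that RNA levels do not measure. The beta subunits, ARNT (Arnt) and ARNT2 (Arnt2), are not degraded in this way and also pair with other proteins of the bHLH-PAS family, such as the aryl hydrocarbon receptor. In liver, HIF-2 is known as the main driver of the erythropoietin gene, and in retina HIF-1 is known for controlling glycolysis and the vascular growth factor VEGF.

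HIF binds the core letters ACGTG or GCGTG. Both were searched, on both strands, in the bases before the start of transcription in the RefSeq promoter table (build GRCm38.p6), which held 4 of the 5 genes. Of 32817 promoters, 38.6% held either core in the 250 bases before the start, so a match is common. Epas1 was not in the table. Of the 3 genes called in any comparison below, the other two, Arnt and Hif1a, are shown, with the matches in capitals. The Arnt sequence is the 227 bases of chr3:95434140-95434366, plus strand, cut before the first annotated start of the gene. It held 1 match, GCGTG, beginning 29 bases before the start used in the table. The Hif1a sequence is the 250 bases of chr12:73907617-73907866, plus strand. It held 3 matches of ACGTG, of which 2 overlap on opposite strands at 134 and 135 bases before the start and the third lies at 70 bases. Hif3a had 2 matches of GCGTG and Arnt2 had 0 in the same window. These are letter matches and not measured binding sites.
Arnt: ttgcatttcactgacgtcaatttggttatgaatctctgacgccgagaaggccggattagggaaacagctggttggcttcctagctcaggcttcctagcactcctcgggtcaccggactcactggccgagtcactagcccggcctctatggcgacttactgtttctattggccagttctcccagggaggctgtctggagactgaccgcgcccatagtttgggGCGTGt
Hif1a: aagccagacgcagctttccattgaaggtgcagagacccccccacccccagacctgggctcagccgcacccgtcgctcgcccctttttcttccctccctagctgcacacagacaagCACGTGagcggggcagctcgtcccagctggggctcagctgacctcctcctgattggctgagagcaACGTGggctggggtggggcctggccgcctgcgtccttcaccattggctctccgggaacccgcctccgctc

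Liver RNA and retina RNA differed in which subunit gene led. With PBS, Epas1 led in liver RNA (labelled retina) at 23.9 ± 3.53 FPKM (mean ± SD, n = 6), followed by Hif1a at 14.8 ± 1.49 FPKM and Arnt at 9.05 ± 0.423 FPKM. The ranges of these 3 did not overlap. Hif3a, at 0.0989 ± 0.0303 FPKM, and Arnt2, at 0.0373 ± 0.0217 FPKM, lay far below and overlapped with each other. In retina RNA (labelled liver) with PBS, Hif1a led at 291 ± 5.85 FPKM, a level that 255 of 18487 detected genes exceeded.

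**Figure D1:**
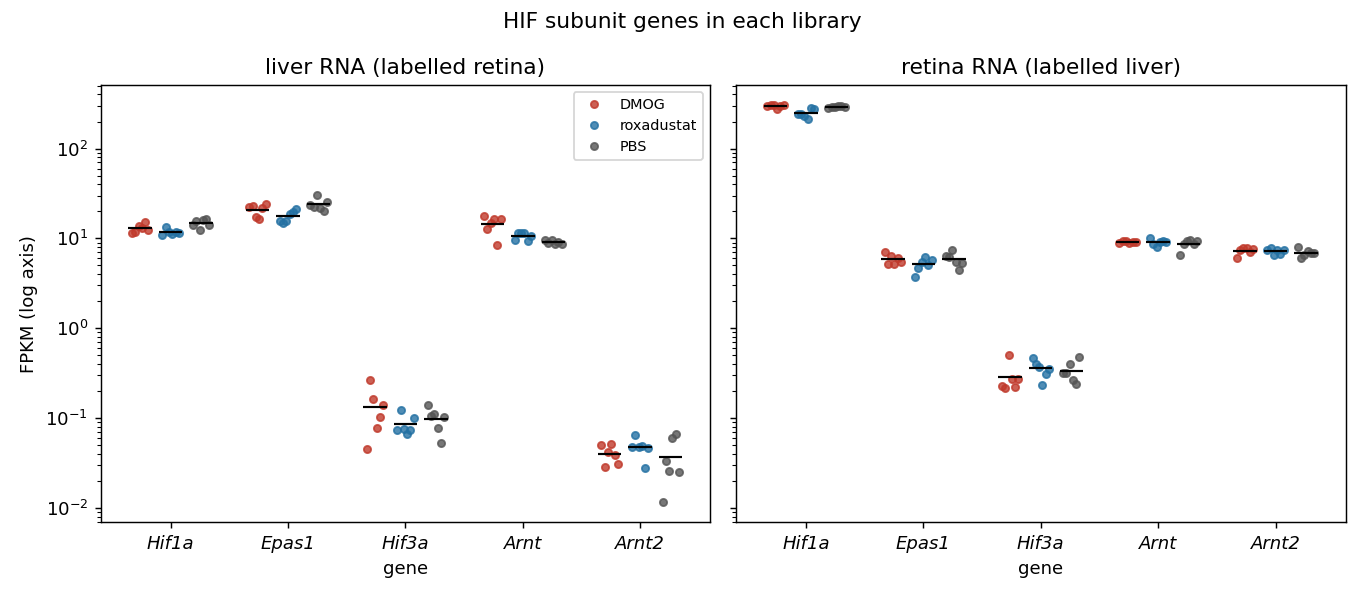
FPKM of the 5 HIF subunit genes in each of 36 libraries, on a log axis, by treatment (bars: means of 6). Epas1 leads in liver RNA (PBS mean 23.9 FPKM) and Hif1a in retina RNA (PBS mean 291 FPKM); Hif3a is low in both and Arnt2 in liver RNA.

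The other 4 genes were far lower in retina RNA. With PBS, Arnt was at 8.68 ± 1.09 FPKM, Arnt2 at 6.96 ± 0.617 FPKM and Epas1 at 5.86 ± 0.995 FPKM (SD, n = 6). Their ranges overlapped, so the order of these 3 is not beyond their spread. Hif3a was at 0.336 ± 0.0878 FPKM and below all others. Epas1 made up 52.2% to 70.5% of the summed alpha FPKM in the 18 libraries of liver RNA and 1.47% to 2.82% in those of retina RNA. Arnt made up 99.3% to 99.9% of the summed beta FPKM in liver RNA and 45.3% to 59.3% in retina RNA. The 2 tables were made separately, so these levels stand side by side with no test.

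The test took in every gene that averaged 0.5 FPKM or more in its table: 3 members in liver RNA (Hif1a, Epas1 and Arnt) and 4 in retina RNA, where Arnt2 also passed. Hif3a passed in neither table. Each table was fitted as a whole with limma on log2(FPKM + 0.5), and a gene was called at a Benjamini-Hochberg adjusted p under 0.05. All errors of log2 fold changes below are SE, and folds are on that scale, which understates changes of low genes. The comparisons of DMOG and of roxadustat with PBS share the PBS libraries.

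Hif1a, the HIF-1 alpha gene, was lower with roxadustat in liver RNA (labelled retina). It was at 10.8, 11.6 and 13.4 FPKM with roxadustat (lowest, median, highest of 6) and at 12.5, 14.9 and 16.5 FPKM with PBS. All 6 roxadustat libraries lay below the PBS mean and 5 of 6 below every PBS library. The log2 fold change was -0.32 ± 0.08 (limma, adjusted p = 0.0303), a level 0.804 times that with PBS (95% interval 0.715 to 0.903). Of the 3 members tested in this comparison 2 were called, both lower, against a background of 4.19% of 12657 genes called and 2.02% called lower.

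The adjusted p of Hif1a in that comparison passed 0.05 when any of 7 libraries was left out. It was 0.0723, 0.0728 and 0.0626 without PBS replicates 2, 4 and 5, and 0.0756, 0.0607, 0.0658 and 0.0535 without roxadustat replicates 1, 3, 4 and 6, while the log2 fold change stayed between -0.36 and -0.28 over all 18 omissions. By the levels of Xist and Y-linked genes, 1 roxadustat library was female and 5 were male, against 3 and 3 with PBS. Among males alone, Hif1a was at 11.2 to 13.4 FPKM in 5 roxadustat libraries and at 14.0 to 16.5 FPKM in 3 PBS libraries, ranges that did not overlap. With sex as a term the log2 fold change was -0.35 ± 0.08 (limma, adjusted p = 0.0179).

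With DMOG, Hif1a in liver RNA was not called. It was at 11.4, 12.8 and 15.4 FPKM with DMOG and, as above, 12.5 to 16.5 FPKM with PBS. The groups overlapped, with 5 of 6 DMOG libraries below the PBS mean and replicate 5 the highest. The log2 fold change was -0.19 ± 0.08 (limma, adjusted p = 0.104). Without DMOG replicate 5, the other 5 had 11.4 to 13.7 FPKM, and Hif1a was called lower at -0.24 ± 0.08 (limma, adjusted p = 0.021). Between roxadustat and DMOG the log2 difference was -0.13 ± 0.08 (limma, adjusted p = 0.434; 95% interval -0.30 to 0.04), so a difference was not shown.

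In retina RNA (labelled liver), where Hif1a is abundant, roxadustat and DMOG gave different levels of it. Hif1a was at 216, 242 and 280 FPKM with roxadustat (lowest, median, highest of 6), at 279, 301 and 307 FPKM with DMOG and at 283, 290 and 300 FPKM with PBS. All 6 roxadustat libraries lay below every PBS library, and 5 of 6 below every DMOG library. Against PBS the log2 fold change was -0.24 ± 0.05 with roxadustat (limma, adjusted p = 0.0183), a level 0.846 times that with PBS (95% interval 0.782 to 0.914). It was the only 1 of 4 members called there, against a background of 2.34% of 13779 genes.

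Roxadustat against DMOG gave a log2 fold change of -0.28 ± 0.05 for Hif1a in retina RNA (limma, adjusted p = 0.00842), again the only 1 of 4 members called, against 1.31% of all genes. By size, 143 of 13779 genes had a lower fold change in that comparison. DMOG against PBS gave 0.04 ± 0.05 (limma, adjusted p = 0.786; 95% interval -0.08 to 0.15), with 0 of 4 members called against 1.07% of all genes. The lowest unadjusted p among the 4 was 0.298, for Arnt. The call against PBS was lost without roxadustat replicate 3 (log2 fold change -0.22, adjusted p = 0.0551), after scaling all libraries to 1 total (-0.27, 0.0519) and with the DMOG libraries out of the fit (-0.24, 0.0739). Against DMOG it was lost at an equal total (-0.29, 0.0504).

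Lens markers were at unequal levels across the treatments in the same retina RNA libraries. Lens is not part of the retina, and how much lens came along at dissection was not tested. The summed FPKM of 3 lens markers was 140 to 7278 with roxadustat, 8.03 to 723 with DMOG and 1341 to 13900 with PBS. With DMOG against PBS, 3 of 3 lens markers were called lower, with a median log2 fold change of -5.38. With roxadustat 0 of 3 were called, but 3 of 3 had an unadjusted p under 0.05 and the median was -2.85. Erythroid markers, 6 genes of which 3 were tested, summed to 12.6 to 56.6 FPKM with roxadustat, 23.6 to 47.3 FPKM with DMOG and 10.9 to 19.3 FPKM with PBS. Of these 1 was called higher with roxadustat and 0 with DMOG, with 3 and 2 at an unadjusted p under 0.05. Mueller glia markers, 4 genes, summed to 418 to 622 FPKM with roxadustat and 475 to 797 FPKM with PBS, with 0 called and 2 at an unadjusted p under 0.05. With DMOG they summed to 515 to 800 FPKM. Interneuron and ganglion cell markers, 7 genes, had 0 called with roxadustat and 3 at an unadjusted p under 0.05 (median log2 fold change -0.18). Of 4 cone markers 1 was called higher with roxadustat and 2 had an unadjusted p under 0.05. Of 5 rod markers 0 were called and 0 had an unadjusted p under 0.05. Over all 13779 genes, 2409 had an unadjusted p under 0.05 with roxadustat and 1892 with DMOG (limma). With roxadustat 1.69% of all genes were called higher and 0.653% lower, and with DMOG 0.370% and 0.697%. The part of the cells marked by these lists in the level of Hif1a was not tested. In RNA of whole tissue, fewer cells of a type and less RNA per cell cannot be told apart.

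**Figure D2:**
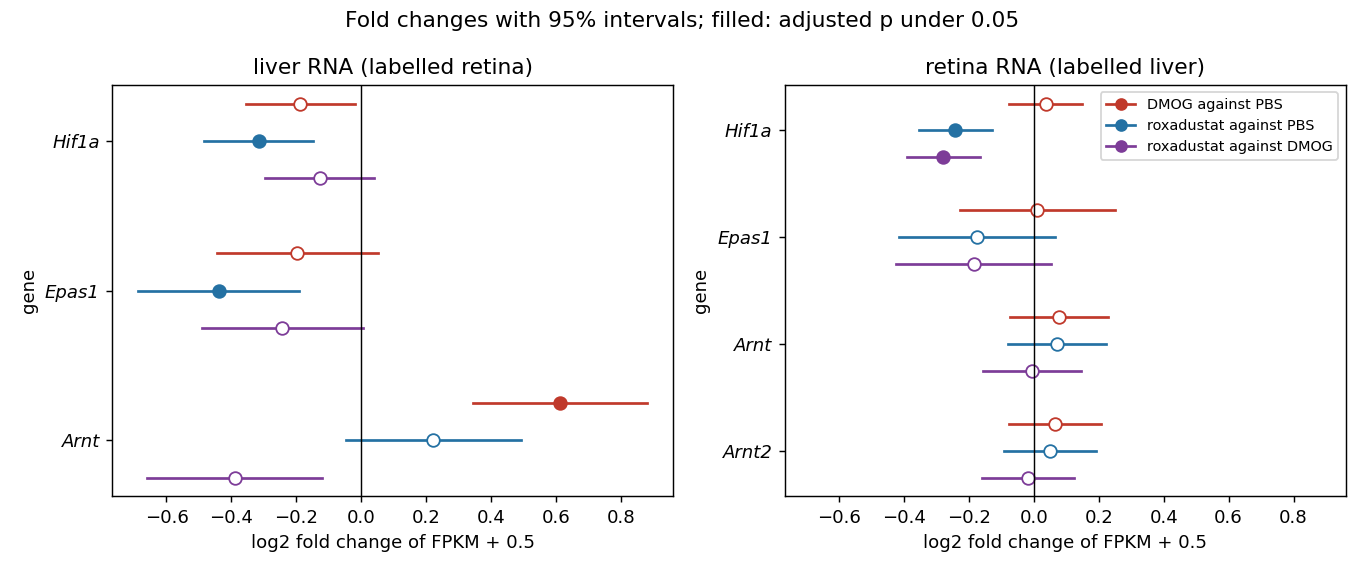
Log2 fold changes of FPKM + 0.5 for each tested member (points, with 95% intervals) in the 3 comparisons within each table; filled points have an adjusted p under 0.05. Arnt lies at 0.61 for DMOG in liver RNA, and the filled points of Hif1a and Epas1 lie below 0.

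Epas1, the HIF-2 alpha gene, was lower with roxadustat in liver RNA (labelled retina). It was at 14.7, 17.1 and 21.5 FPKM with roxadustat (lowest, median, highest of 6) and at 20.4, 22.8 and 30.3 FPKM with PBS. Of the 6 roxadustat libraries, 5 lay below every PBS library. Its log2 fold change was -0.44 ± 0.12 (limma, adjusted p = 0.0426), a level 0.738 times that with PBS (95% interval 0.621 to 0.876). The call was lost with no filter on low values (adjusted p = 0.0573), at the same fold change. The highest PBS value belonged to replicate 3, and without it the log2 fold change was -0.37 (adjusted p = 0.1003).

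Of the 18 omissions of 1 library, 9 ended the call of Epas1 with roxadustat in liver RNA. The adjusted p was 0.0693, 0.0665, 0.1003, 0.0590 and 0.0962 without PBS replicates 1, 2, 3, 4 and 6, and 0.0956, 0.105, 0.0969 and 0.0603 without roxadustat replicates 1, 2, 3 and 4, with log2 fold changes of -0.50 to -0.37. Among males alone, Epas1 was at 14.7 to 21.5 FPKM in 5 roxadustat libraries and at 20.4 to 25.6 FPKM in 3 PBS libraries. With sex as a term the log2 fold change was -0.45 ± 0.13 (limma, adjusted p = 0.048).

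Endothelial cells are a known site of Epas1 expression. In liver RNA 10 endothelial markers summed to 121 to 146 FPKM with roxadustat and 120 to 140 FPKM with PBS. With roxadustat 1 of these 10 was called higher and 0 lower, against 2.16% and 2.02% of all genes. Of the 10, 4 had an unadjusted p under 0.05 (limma). The 4 markers of the liver sinusoid summed to 85.02 to 112 FPKM with roxadustat and 93.9 to 118 FPKM with PBS. Of these 0 were called, 2 had an unadjusted p under 0.05, and the median log2 fold change was -0.14. Markers of stellate cells and pericytes were 5 genes, of which 1 was too low to test. They summed to 33.3 to 46.5 FPKM with roxadustat (median 36.6) and 27.8 to 42.2 FPKM with PBS (median 36.1). Of the 4 tested, 1 was called lower with roxadustat and 4 had an unadjusted p under 0.05, with a median log2 fold change of -0.24. Hepatocyte markers had 0 of 5 called, with 0 at an unadjusted p under 0.05. Over all 12657 genes in this comparison, 2394 had an unadjusted p under 0.05 (limma). The part of the cells marked by these lists in the level of Epas1 was not tested.

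With DMOG, Epas1 in liver RNA was at 16.2, 22.3 and 24.4 FPKM, against 20.4 to 30.3 FPKM with PBS, and the groups overlapped. The log2 fold change was -0.20 ± 0.12 (limma, adjusted p = 0.248), and without DMOG replicate 5 it was -0.21 ± 0.13 (adjusted p = 0.195). Roxadustat against DMOG gave -0.24 ± 0.12 (limma, adjusted p = 0.295; 95% interval -0.49 to 0.01). In retina RNA (labelled liver) Epas1 was at 3.76, 5.23 and 6.26 FPKM with roxadustat, 5.13, 5.74 and 7.06 FPKM with DMOG and 4.47, 5.83 and 7.37 FPKM with PBS. All 3 groups overlapped there, and no difference was called. The log2 fold changes against PBS were -0.18 ± 0.11 with roxadustat (limma, adjusted p = 0.454) and 0.01 ± 0.11 with DMOG (adjusted p = 0.979).

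Hif3a, whose splice forms include an inhibitor of HIF, was below the limit for testing in both tables. In liver RNA it was at 0.0455, 0.122 and 0.265 FPKM with DMOG (lowest, median, highest of 6), at 0.0663, 0.0749 and 0.123 FPKM with roxadustat and at 0.0536, 0.105 and 0.141 FPKM with PBS. In retina RNA it was at 0.214, 0.248 and 0.507 FPKM with DMOG, 0.233, 0.364 and 0.473 FPKM with roxadustat and 0.237, 0.317 and 0.473 FPKM with PBS. The treatments overlapped in both tissues. With no filter on low values, its log2 fold changes against PBS lay between -0.09 and 0.07 and none was called, on a scale that understates changes of genes this low.

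Arnt, the gene of the main beta subunit, was the member that rose. In liver RNA (labelled retina) it was at 8.48, 15.7 and 17.9 FPKM with DMOG (lowest, median, highest of 6) and at 8.60, 8.99 and 9.53 FPKM with PBS. Of the 6 DMOG libraries, 5 lay above every PBS library at 12.7 to 17.9 FPKM, and the sixth, replicate 5, lay below all of them. This was a log2 fold change of 0.61 ± 0.13 (limma, adjusted p = 0.00336), a level 1.53 times that with PBS. It was the only 1 of 3 members called, against a background of 20.0% of genes called and 8.26% called higher, and 447 of 12657 genes had a larger rise. Without DMOG replicate 5 the log2 fold change was 0.75 ± 0.08 (adjusted p = 1.68e-06), with 35.5% of genes called.

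With roxadustat, Arnt in liver RNA was at 9.46, 10.99 and 11.6 FPKM, against 8.60 to 9.53 FPKM with PBS. Of the 6 roxadustat libraries, 5 lay above every PBS library, and all 6 above the PBS mean. The log2 fold change of 0.22 ± 0.13 was not called (limma, adjusted p = 0.366; 95% interval -0.05 to 0.49). The wide spread of the DMOG libraries enters this error: without DMOG replicate 5 the adjusted p was 0.0808, and in a fit of the roxadustat and PBS libraries alone it was 0.0444.

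Roxadustat against DMOG gave a log2 fold change of -0.39 ± 0.13 for Arnt in liver RNA (limma, adjusted p = 0.107). In that comparison 0 of 3 members were called, against 2.99% of genes, and Arnt had an unadjusted p of 0.00698. Without DMOG replicate 5 Arnt was called lower with roxadustat, at -0.53 ± 0.08 (limma, adjusted p = 2.85e-04). Of 18 omissions of a library, this was the only 1 that gave the call. That library was also the lowest DMOG library for Arnt, so the call follows in part from the choice to leave it out. With that library left out, the 5 other DMOG libraries had 12.7 to 17.9 FPKM and the 6 roxadustat libraries 9.46 to 11.6 FPKM, ranges that did not overlap. Sex was unbalanced here, with 4 of 6 DMOG libraries female by Xist and Y-linked genes, against 1 of 6 with roxadustat. With sex as a term and all libraries kept, the log2 fold change was -0.35 ± 0.14 (limma, adjusted p = 0.307). That fit called 78 genes, against 379 without the term.

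**Figure D3:**
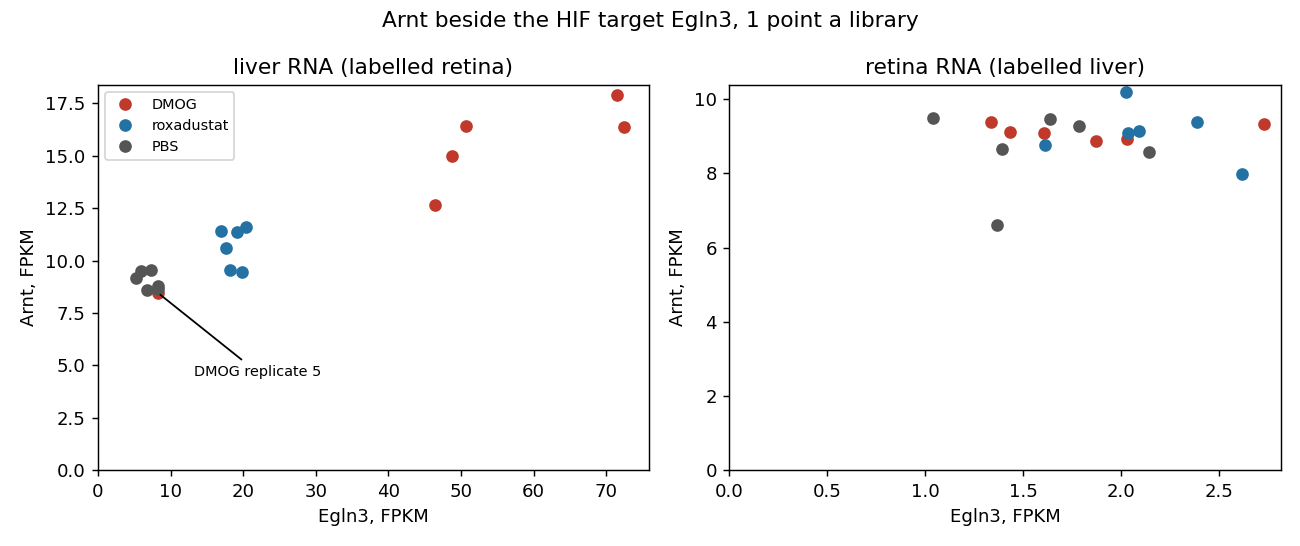
FPKM of Arnt against FPKM of Egln3, a HIF target, with 1 point a library, in liver RNA (left) and retina RNA (right). In liver RNA, DMOG replicate 5 (8.48 FPKM of Arnt, 8.23 FPKM of Egln3) lies at the lower edge of the PBS libraries on Arnt and within them on Egln3, and the other 5 DMOG libraries lie highest on both axes.

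Egln3, a prolyl hydroxylase gene that HIF induces, had larger fold changes than Arnt. In liver RNA it was at 8.23 to 72.5 FPKM with DMOG, 17.0 to 20.4 FPKM with roxadustat and 5.19 to 8.29 FPKM with PBS. Its log2 fold changes were 2.51 ± 0.36 with DMOG (limma, adjusted p = 7.92e-04) and 1.38 ± 0.36 with roxadustat (adjusted p = 0.0342). The libraries fell into separate clusters by treatment on Egln3, apart from DMOG replicate 5, so no correlation over the 18 libraries is given.

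In retina RNA (labelled liver) Arnt was at 8.87, 9.10 and 9.39 FPKM with DMOG, 7.98, 9.11 and 10.2 FPKM with roxadustat and 6.60, 8.96 and 9.49 FPKM with PBS. The treatments overlapped. The log2 fold changes against PBS were 0.08 ± 0.07 with DMOG (limma, adjusted p = 0.644) and 0.07 ± 0.07 with roxadustat (adjusted p = 0.662). The upper ends of their 95% intervals were 0.23 and 0.22.

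The response of Arnt to DMOG differed between the tissues. The log2 fold change in liver RNA minus that in retina RNA was 0.54 ± 0.15 (limma over all 36 libraries, adjusted p = 0.0136), 1 of 3 members called, against 15.9% of 11101 genes. Leaving out DMOG replicate 5 of liver RNA gave 0.68 ± 0.11 (adjusted p = 1.28e-05). Hif1a gave -0.22 ± 0.09 (adjusted p = 0.101) and, without that library, -0.27 ± 0.09 (adjusted p = 0.021). Epas1 gave -0.21 ± 0.17 (adjusted p = 0.424).

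For roxadustat, 0 of 3 members differed between the tissues by the same limma test, against 2.24% of genes. The differences, liver RNA minus retina RNA, were 0.15 ± 0.15 for Arnt (adjusted p = 0.665), -0.07 ± 0.09 for Hif1a (adjusted p = 0.767) and -0.26 ± 0.17 for Epas1 (adjusted p = 0.46). The lowest unadjusted p among the 3 was 0.124. So Hif1a was called lower with roxadustat in both tissues, and a difference in its response between them was not shown.

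Arnt2, the beta subunit gene known for expression in neurons, was tested in retina RNA only. In retina RNA it was at 6.09, 7.51 and 7.92 FPKM with DMOG, 6.49, 7.42 and 7.74 FPKM with roxadustat and 6.13, 6.94 and 7.96 FPKM with PBS, and the groups overlapped. Its log2 fold changes against PBS were 0.07 ± 0.07 with DMOG (limma, adjusted p = 0.678) and 0.05 ± 0.07 with roxadustat (adjusted p = 0.765). In liver RNA it was above 0 in all 18 libraries but at 0.0116 to 0.0669 FPKM. In retina RNA, Arnt exceeded Arnt2 in 6 of 6 DMOG, 6 of 6 roxadustat and 5 of 6 PBS libraries.

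Ratios of subunit genes within a library do not depend on how that library was scaled, and FPKM are per transcript length. The ratios below combine the levels given above and carry no test. How often other pairs of genes separate by treatment was not counted. In liver RNA, Hif1a over Arnt was 0.635, 0.855 and 1.81 with DMOG (lowest, median, highest of 6), 0.982, 1.11 and 1.26 with roxadustat and 1.32, 1.70 and 1.84 with PBS. The roxadustat and PBS libraries did not overlap, and neither did the DMOG libraries other than replicate 5. Hif1a exceeded Arnt in 1 of 6 DMOG libraries (replicate 5), in 5 of 6 roxadustat libraries and in 6 of 6 PBS libraries.

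**Figure D4:**
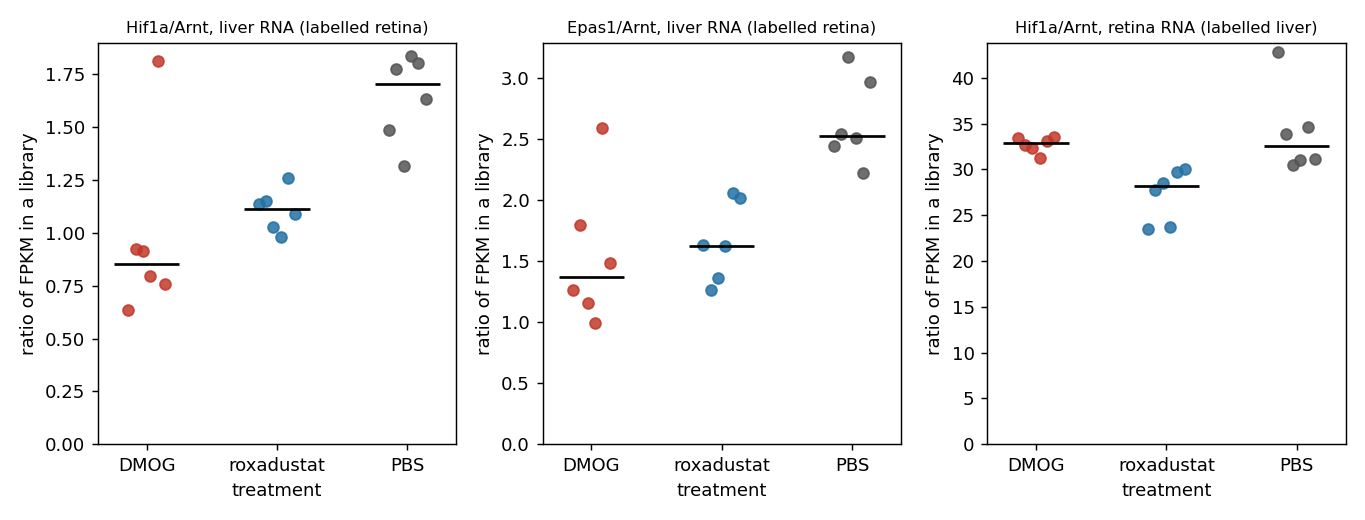
Ratios of FPKM within each library (points; bars: medians of 6) for Hif1a over Arnt and Epas1 over Arnt in liver RNA and Hif1a over Arnt in retina RNA. In liver RNA both ratios are lower with DMOG, except in replicate 5 (1.81 and 2.59), and with roxadustat than with PBS.

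Epas1 over Arnt in liver RNA was 0.992, 1.37 and 2.59 with DMOG, 1.27, 1.63 and 2.06 with roxadustat and 2.22, 2.53 and 3.18 with PBS. The roxadustat and PBS ranges again did not overlap. Epas1 over Hif1a, by contrast, overlapped throughout, at 1.25 to 1.98 with DMOG, 1.10 to 1.85 with roxadustat and 1.23 to 2.41 with PBS. So the ranges of the 2 alpha genes relative to each other overlapped, while those relative to Arnt did not with roxadustat. The summed alpha FPKM over the summed beta FPKM was 1.79 to 4.39 with DMOG, 2.38 to 3.32 with roxadustat and 3.94 to 4.61 with PBS.

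In retina RNA, Hif1a over Arnt was 23.5, 28.2 and 30.01 with roxadustat, 31.3, 32.9 and 33.6 with DMOG and 30.5, 32.6 and 42.8 with PBS. All 6 roxadustat libraries lay below every DMOG and PBS library, though the nearest values, 30.01 and 30.5, were close. The highest PBS ratio came from replicate 1, where Arnt was lowest at 6.60 FPKM. Arnt2 over Arnt was 0.687 to 0.883 with DMOG, 0.715 to 0.883 with roxadustat and 0.695 to 1.21 with PBS.

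Genes that control the stability or activity of HIF alpha were described as a list of 20, all of them tested in both tissues. In liver RNA 4 were called higher and 0 lower with DMOG, with a median log2 fold change of 0.06 against 0.01 over all genes, of which 8.26% were called higher and 11.7% lower. These were Egln3, Egln1, the main oxygen-sensing prolyl hydroxylase gene (1.18 ± 0.17, limma, adjusted p = 7.92e-04), Cited2, which encodes a competitor of HIF for the coactivators CBP and p300 (1.49 ± 0.31, adjusted p = 0.00309), and Vhl, which encodes the subunit of the ubiquitin ligase that binds hydroxylated HIF alpha (0.57 ± 0.11, adjusted p = 0.00225). With roxadustat in liver RNA 3 were called higher and 0 lower, against 2.16% and 2.02% of all genes: Egln1 (1.12 ± 0.17, adjusted p = 0.00127), Egln3 and Cited2 (1.14 ± 0.31, adjusted p = 0.0425). Vhl had 0.36 ± 0.11 (adjusted p = 0.0726), and without DMOG replicate 5 the count was 4, with 8.78% of all genes called. Roxadustat against DMOG gave 0 of 20 calls in liver RNA, against 1.86% of all genes higher and 1.14% lower. Of the list 1 had an unadjusted p under 0.05, against 2267 of all 12657 genes. Without DMOG replicate 5, roxadustat against DMOG gave 3 of 20 lower, with 16.2% of all genes called. That library was set apart by its low Egln3, which is on this list. The counts of the list without it therefore follow in part from that choice. The split of calls over all genes in liver RNA depended on scaling: with all libraries at an equal total, 17.8% of the genes called with DMOG, 31.4% with roxadustat and 82.6% for roxadustat against DMOG were higher, against 41.4%, 51.7% and 62.0% as reported.

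In retina RNA the same list of 20 had 0 calls with DMOG, against 0.370% of all genes higher and 0.697% lower. There 6 had an unadjusted p under 0.05, against 1892 of all 13779 genes, and Egln1 came nearest (0.27 ± 0.07, limma, adjusted p = 0.066). With roxadustat 3 were called higher and 0 lower, against 1.69% and 0.653% of all genes: Egln1 (0.91 ± 0.07, adjusted p = 1.17e-07), Vhl (0.16 ± 0.03, adjusted p = 0.0133) and Siah2, a ubiquitin ligase gene that acts on prolyl hydroxylases (0.19 ± 0.05, adjusted p = 0.0437). Roxadustat against DMOG gave 1 higher, Egln1 (0.64 ± 0.07, adjusted p = 1.94e-05), against 0.980% of all genes higher and 0.334% lower. The comparison that called Hif1a lower between the compounds also called Egln1 higher, and a relation between these genes was not tested.

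The list's responses to DMOG differed between the tissues for 4 of 20 genes called, each higher in liver RNA, against 6.97% of all genes higher and 8.91% lower. These were again Egln3 (2.33 ± 0.39, limma, adjusted p = 3.08e-04), Egln1, Vhl and Cited2. For roxadustat 0 of 20 differed, against 1.22% higher and 1.03% lower. Of the 20, 7 had an unadjusted p under 0.05, against 1733 of all 11101 genes. Egln2, a further prolyl hydroxylase gene, came nearest (-0.33 ± 0.09, adjusted p = 0.0533). Without DMOG replicate 5 of liver RNA, 4 were higher and 1 lower for DMOG, with 28.8% of all genes called, and 2 higher and 1 lower for roxadustat, with 4.75% called. With all libraries at an equal total, 23.2% of the genes called for DMOG and 42.3% of those for roxadustat were higher in liver RNA, against 43.9% and 54.2% as reported.

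The bHLH-PAS relatives, which include possible partners of ARNT, were a list of 14 of which 6 were tested in liver RNA and 9 in retina RNA. In liver RNA with DMOG 1 was called lower, Ncoa2, a nuclear receptor coactivator gene (-0.21 ± 0.07, limma, adjusted p = 0.0382), and 0 higher, against 11.7% and 8.26% of all genes, while Ncoa1 had 0.33 ± 0.12 (adjusted p = 0.054). Without DMOG replicate 5 the list had 1 higher and 1 lower of 6, with 35.5% of all genes called, so its share is near the background. With roxadustat in liver RNA, and with either compound in retina RNA, 0 were called. The smallest unadjusted p in these 3 comparisons were 0.123 for Ahr with roxadustat in liver RNA, and 0.00470 and 0.0289 for Clock, a circadian regulator gene, with roxadustat and with DMOG in retina RNA.

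To describe the response in the same libraries, 20 HIF targets were counted. This list, like those above, was chosen with earlier results of these data known, so its counts are not an independent test. In liver RNA 17 of 19 tested were called higher with DMOG and 16 of 19 with roxadustat, against 8.26% and 2.16% of all genes, with median log2 fold changes of 1.37 and 1.30 and 0 lower. Leaving out DMOG replicate 5 gave 18 of 19 in each comparison, with 35.5% and 8.78% of all genes called in either direction. Ero1l, an oxidase of the endoplasmic reticulum, rose by 2.59 ± 0.37 with DMOG (limma, adjusted p = 7.92e-04). In retina RNA 4 of 18 tested were called higher with DMOG and 13 of 18 with roxadustat, against 0.370% and 1.69% of all genes, with medians of 0.23 and 0.62 and 0 lower. The 4 with DMOG were Ankrd37 (0.69 ± 0.11), Kdm3a (0.39 ± 0.06), Ddit4 (0.45 ± 0.09) and Ldha, the gene of a lactate dehydrogenase subunit (0.32 ± 0.06). Pdk1, another target, which encodes a kinase that inhibits pyruvate dehydrogenase, had 1.60 ± 0.22 with roxadustat in liver RNA (limma, adjusted p = 5.55e-04) and 1.48 ± 0.15 in retina RNA (adjusted p = 4.48e-06). Roxadustat against DMOG gave 9 of 18 targets higher in retina RNA, against 0.980% of all genes. In liver RNA it gave 0 of 19, with 4 at an unadjusted p under 0.05, against 2267 of all 12657 genes. There 10 of 19 were called lower without DMOG replicate 5, with 16.2% of all genes called in either direction. That library was set apart by its low Egln3, which is on this list. The counts of the list without it therefore follow in part from that choice.

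The genes most like each member were found by Pearson correlation of log2(FPKM + 0.5) over the 18 libraries of a table, among named genes that averaged 5 FPKM or more there. These values describe the libraries, which share their treatment, and carry no test. In liver RNA, Arnt was most like Mtap4 (r = 0.954), Npepps (0.948) and Slc12a4 (0.943), and all 3 r include the gap between DMOG replicate 5 and the other DMOG libraries. Hif1a was most like Setd8 (0.892), Smad2 (0.889) and Hn1l (0.865), and Epas1 like Eif2c1 (0.908), Lamc1 (0.898) and Vipr1 (0.892). In retina RNA, Hif1a was most like Cadm1 (0.919), Ndufs1 (0.910) and Mbnl2 (0.866), Epas1 like Abhd12 (0.910), Slc24a3 (0.888) and Habp4 (0.873), Arnt like Txndc11 (0.916), Chd8 (0.913) and Ube4a (0.910), and Arnt2 like Agrn (0.798), Edc3 (0.790) and Usp22 (0.789).

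**Figure D5:**
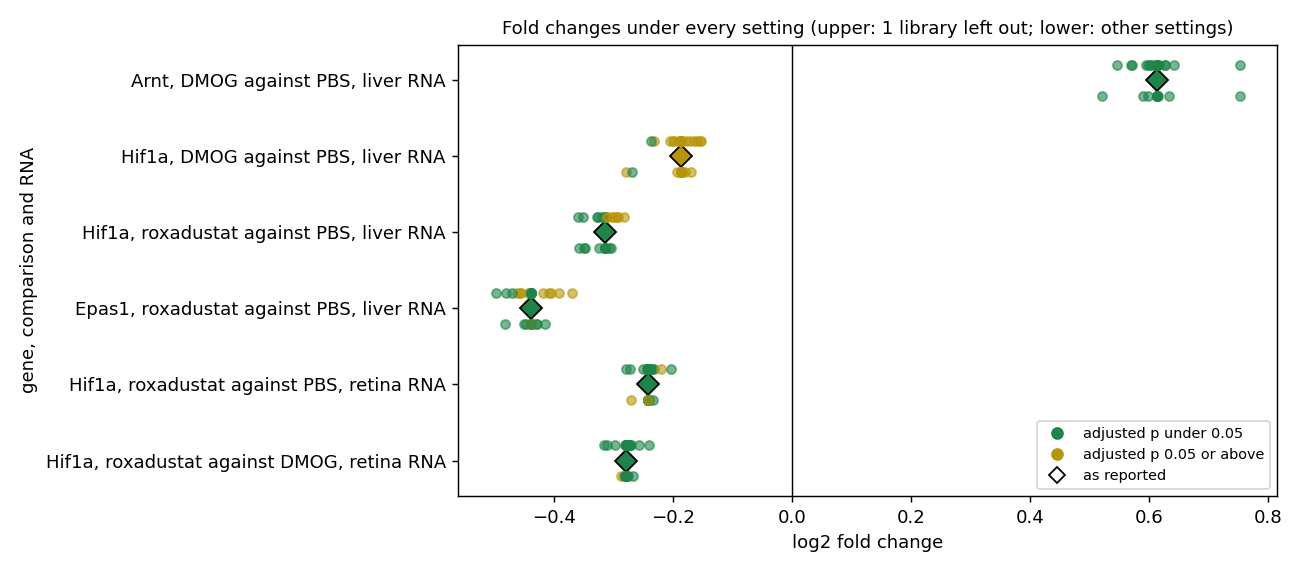
Log2 fold changes of 6 member results as reported (diamonds), with 1 library left out (upper points) and under other settings (lower points); green marks an adjusted p under 0.05. Arnt with DMOG in liver RNA is green throughout, between 0.52 and 0.75, while the lower values of Hif1a and Epas1 keep their sign and cross the threshold in some settings.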

How the data were processed

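Per the labels' protocols, total RNA was extracted with RNeasy and sequenced with a stranded total RNA kit after Ribo-Zero Gold depletion. The deposited values are FPKM, per the file names, and the tools in the submitters' processing notes are Cuffdiff 2.2.1, TopHat2 (version 2) and bcl2fastq 1.8.3, with build mm9. The annotation, the strand setting and the scaling between libraries are not given in the sources used here. In a GENCODE annotation of a later build, genes on the opposite strand overlap Hif1a, Hif3a and Arnt2. Genes on the same strand overlap Hif1a (protein-coding), Arnt (a processed pseudogene), Epas1 and Arnt2. None of these overlapping genes is listed in these tables. A row of totals was dropped. For each table, limma 3.58.1 in R 4.3.3 estimated the mean of each treatment on log2(FPKM + 0.5), with moderated variances that follow the mean level. Tests were two-sided. Differences between tissues used all 36 libraries and genes passing the filter in both tables. The fit was tested on simulated data. Named genes were the members, the 3 genes most like each, and up to 4 of each list with the smallest adjusted p, with some left out. The members and lists were chosen with earlier results of these data known. Alternatives are in the closing section. Figures used Python 3.11.15 and matplotlib 3.10.9.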

Additional observations from a re-analysis of the deposited data

Results flagged for a closer look

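Arnt responded to DMOG differently in the 2 tissues: the log2 fold change in liver RNA (labelled retina) minus that in retina RNA (labelled liver) was 0.54 ± 0.15 (SE, limma, adjusted p = 0.0136).

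In 3 of the 30 groups of 6 values (5 genes in 6 groups), 1 library stood apart from the other 5 by more than Dixon's critical value allows, which chance does in about 1 group in 20. All 3 were in retina RNA. Hif1a was 279 FPKM in DMOG replicate 4, against 297 to 307 FPKM in the other 5. Hif3a was 0.507 FPKM in DMOG replicate 3, against 0.214 to 0.273 FPKM. Arnt was 6.60 FPKM in PBS replicate 1, against 8.56 to 9.49 FPKM.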

How the results depend on the processing

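Of 291 member results under 11 other settings (pseudocounts of 0.1 and 1, no filter, a mean of at least 5 FPKM, equal total, median ratio, no trend, array weights, sex, the replicate block, only the treatments compared), 279 kept sign and side of the threshold. The number of members called in liver RNA became 2 with DMOG and 1 between the compounds with array weights, and with roxadustat 1 with no filter (Epas1 adjusted p = 0.0573) and 3 in a fit of only the 2 treatments (Arnt adjusted p = 0.0444). The replicate block also left 1 (Epas1 adjusted p = 0.0566), and it changed no other call. The deviations of same-numbered libraries correlated at -0.333 to 0.546, with 1 to 4 of 6 pairs over 0.1, so a pairing was not shown. In retina RNA it became 0 with roxadustat at an equal total and with only the treatments compared, and 0 between the compounds at an equal total. With array weights, 2 members differed between tissues for DMOG. Leaving out 1 library gave 1 to 2 members with DMOG, 0 to 2 with roxadustat and 0 to 1 between the compounds in liver RNA, 0 to 1 with roxadustat in retina RNA and 1 to 2 for the DMOG difference. Signs turned only for uncalled values in retina RNA: Epas1 with DMOG at an equal total (-0.0075) and with array weights (-0.058), and Arnt between the compounds with sex (0.0084). Leaving out 1 library gave -0.058 to 0.075 for Epas1 with DMOG, -0.0016 to 0.11 for Arnt with roxadustat, and -0.039 to 0.028 for Arnt and -0.065 to 0.011 for Arnt2 between the compounds. The causes were not tested. Over all genes in liver RNA, 2526 (1655 to 4489), 530 (325 to 1590) and 379 (62 to 2052) were called for DMOG, roxadustat and roxadustat against DMOG over all settings, and in retina RNA 147 (48 to 551), 323 (190 to 512) and 181 (128 to 607). For the differences between tissues it was 1763 (976 to 3202) and 249 (113 to 737). Read depth is unknown, and Hif3a, and Arnt2 in liver RNA, were too low to test.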

Other observations

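For the members too low to test, the most similar genes over 18 libraries were Tesk2, Msi2 and Pigq (Pearson r of 0.799, 0.755 and 0.747) for Hif3a in liver RNA and Npm1, Larp7 and Thoc4 (0.753, 0.747 and 0.707) for Arnt2 in liver RNA. For Hif3a in retina RNA they were Pxdn, Htra3 and Col4a1 (0.849, 0.839 and 0.790). Hif3a in both tables, and Arnt2 in liver RNA, had means over the 18 libraries that were under the limit for testing.

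With PBS, Hif1a in liver RNA was at 12.5, 14.2 and 15.6 FPKM in the 3 female libraries and at 14.0, 15.9 and 16.5 FPKM in the 3 male libraries, ranges that overlapped. Arnt was at 8.79, 9.52 and 9.53 FPKM in the female and at 8.60, 8.67 and 9.18 FPKM in the male libraries, again overlapping.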
